A study of Mus musculus with 4 samples.

Results

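The genes described here are those of antigen presentation on major histocompatibility complex (MHC) class II: H2-Aa, H2-Ab1, H2-Eb1, H2-Eb2, H2-Oa, H2-Ob, H2-DMa, H2-DMb1, Cd74 and Ciita. They are 10 of 21887 protein-coding genes of the RefSeq annotation of the mouse assembly GRCm38.p6, which has the mm10 coordinates used throughout. Each locus was taken as the gene body with 10 kb on either side, and every accessible interval that overlapped a locus was counted, with shared ones counted once. The 10 loci form 5 separate stretches of the genome. They held 70 of the 120423 accessible regions obtained by merging overlapping intervals of all libraries.

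Open chromatin was mapped with Omni-ATAC-seq, an assay whose transposase cuts and tags accessible DNA, in cells from bone marrow of C57BL/6J mice. There were 4 libraries, 1 each of Cxcr3-/- monocytes, WT monocytes, Cxcr3-/- CMP/GMP and WT CMP/GMP, the last pair being a population of common myeloid and granulocyte-monocyte progenitors. Cxcr3 encodes a chemokine receptor, and the study examined its function in macrophage differentiation around liver cancer. All 4 are labelled with hepatocellular carcinoma as disease state, the study's mice having been given diethylnitrosamine and tetrachloromethane, whereas the design text says the sequenced cells were cultured in vitro. The deleted part of Cxcr3, the number of animals, their age and sex, the culture conditions and whether the duplicate sequencing runs were pooled are not given in the sources used here. With 1 library per group there is no spread between replicates, so no p-value is given. All intervals in brackets are exact 95% intervals that cover counting error only.

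Class II molecules are heterodimers of an alpha and a beta chain that carry peptides from ingested proteins to CD4 T cells. Cd74, the invariant chain, guards the peptide groove until the H2-M dimer of H2-DMa and H2-DMb exchanges its remnant for antigenic peptide, and the H2-O dimer restrains H2-M. Ciita binds no DNA itself but is drawn to class II promoters by the RFX, CREB and NF-Y factors on the X and Y boxes. Dendritic cells and B cells use it constitutively, and monocytes and macrophages largely after interferon-gamma.

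The promoters of the class II genes carry these boxes, and the sequences are shown because the accessible intervals at gene starts lay over them. RefSeq promoter windows, from 250 bases before to 50 after the start, were matched for 7 of the 10 genes, all but H2-Ab1, Cd74 and Ciita, and gave 8 windows. In the lines that follow, capitals mark an X core of the letters GNAAC and a Y box of the letters TGATTGG, the inverted CCAAT element, each read 5′ to 3′ on the gene's strand. The first 3 are from gene starts that were accessible in all 4 libraries, and the last 3 from starts that overlapped no interval.
H2-Aa (mm10 chr17:34287842-34287934, minus strand): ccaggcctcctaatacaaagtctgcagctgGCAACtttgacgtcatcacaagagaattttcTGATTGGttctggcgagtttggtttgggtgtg
H2-Eb1 (mm10 chr17:34305746-34305837, plus strand): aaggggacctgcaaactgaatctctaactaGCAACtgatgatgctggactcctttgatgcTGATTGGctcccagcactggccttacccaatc
H2-DMb1 (mm10 chr17:34153067-34153159, plus strand): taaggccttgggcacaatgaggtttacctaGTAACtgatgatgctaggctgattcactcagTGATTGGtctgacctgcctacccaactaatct
H2-Oa (mm10 chr17:34092273-34092365, plus strand): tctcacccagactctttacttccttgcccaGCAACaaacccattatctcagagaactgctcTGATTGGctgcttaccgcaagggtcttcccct
H2-Ob (mm10 chr17:34238788-34238877, plus strand): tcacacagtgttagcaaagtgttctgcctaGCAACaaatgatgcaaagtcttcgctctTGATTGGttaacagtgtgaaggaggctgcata
H2-Eb2 (mm10 chr17:34325513-34325604, plus strand): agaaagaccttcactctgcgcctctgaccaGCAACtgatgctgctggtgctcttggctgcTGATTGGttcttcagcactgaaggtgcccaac

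In these 6 windows the X core began 28 to 31 bases before the Y box. The pair in this order on 1 strand, with 20 to 45 bases between the starts and either strand searched, was in 6 of the 8 windows and in 235 of 32851 promoter windows of the genome (0.715%). Those letters were chosen after the 8 windows had been read, so the count describes them. Of the letters listed earlier, searched on both strands, the short Y box ATTGG, which lies within the longer one, was in 7 of 8 windows and 37.4% of all windows. A longer X box consensus was in 1 of 8 and 5.33% of all. Neither a PU.1 site (GAGGAAGT, 3.2% of all windows) nor a gamma-activated site (TTCNNNGAA, 8.3%) was in any of the 8.

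The same X and Y letters stood over accessible chromatin at some class II genes and not at others. At H2-Aa, H2-Eb1 and H2-DMb1 the Y box lay inside the interval of each of the 4 libraries. The 12 summits, the points of highest tag pileup, were 3 to 53 bp from the centre of the Y box, with a median of 21.5 bp. At H2-DMb1 the summits of Cxcr3-/- and WT monocytes fell on the same base, 3 bp from that centre. The windows of H2-Oa, H2-Ob and H2-Eb2 overlapped no interval of any library, although a weak interval of 8 tags in WT monocytes (chr17:34325181-34325411) ended just before the H2-Eb2 window. Of the 235 windows with the pair, 64.3% overlapped an accessible region, against 44.3% of all windows that could be placed.

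Accessibility of a region was taken as the number of tags piled up at its summit. This number was recovered from the deposited fold enrichment and p-value, assuming a Poisson background and 1 added tag, and came out whole within 0.01 for all but 0, 1, 1 and 0 intervals of the 4 libraries. Comparisons used tags scaled by the median pileup over the 44591 regions called in all libraries, which was 30 tags in Cxcr3-/- monocytes, 38 in WT monocytes, 44 in Cxcr3-/- CMP/GMP and 27 in WT CMP/GMP. The libraries thus differed in depth and list length: the authors' lists held 78244, 98257, 80171 and 69521 intervals in the same order, and WT monocytes, the longest list, reached down to 5 tags. A region missing from a list is therefore not shown to be closed. Scaling by background tags instead adds 0.62 in Cxcr3-/- and 1.23 in WT cells to every log2 ratio of monocytes to CMP/GMP, and −0.52 in monocytes and 0.09 in CMP/GMP to every ratio of Cxcr3-/- to WT, so that order between cell types holds for the scaling used. Of the log2 ratios of monocytes to CMP/GMP given below, the negative ones of smaller size than the shift turn positive with it. Counts and medians of log2 ratios use regions with a mean of at least 30 tags, and 2-fold was the size used to name a difference. The mean is of unscaled tags over both libraries compared, so a region can pass through its higher library alone. Ratios on smaller means are given for single regions as less precise descriptions and marked as such.

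The class II loci held 41 accessible regions in Cxcr3-/- monocytes, 60 in WT monocytes, 46 in Cxcr3-/- CMP/GMP and 36 in WT CMP/GMP. Their intervals were of ordinary strength, with median summit pileups of 18, 23.5, 28.5 and 18.5 tags in the same order. Of the 70 regions, 26 (37.1%) were called in all 4 libraries, beside 37% of all regions. A further 8 were called in both monocyte libraries and neither CMP/GMP library (11.4%, beside 14.4% of all regions), and 3 in both CMP/GMP libraries and neither monocyte library (4.29%, beside 7.28%). WT monocytes alone had 12 (17.1%, beside 12.5%), Cxcr3-/- CMP/GMP alone had 6 (8.57%, beside 7.54%), Cxcr3-/- monocytes alone had 1 (1.43%, beside 2.61%) and WT CMP/GMP alone had none (beside 2.94%). As a set, the loci thus had shares of presence patterns near those of the genome. In bulk libraries a smaller share of cells with an open region and a lower opening per cell cannot be told apart.

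**Figure D1:**
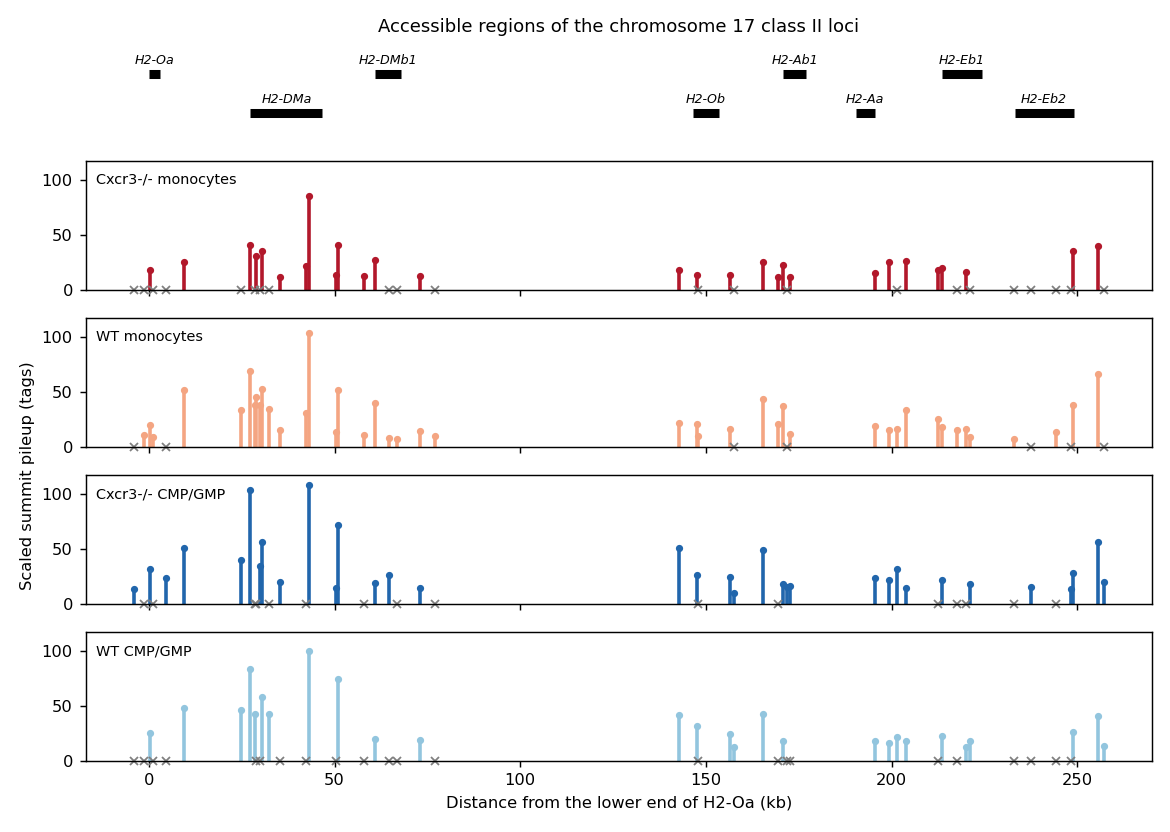
Scaled summit pileup in tags (vertical axis) of the 50 accessible regions of the chromosome 17 loci, against distance in kb from the lower end of H2-Oa, with 1 panel per library and gene bodies in black at the top. Grey crosses are regions not called in that library. The tallest region lies in the H2-DMa body in every panel, and WT CMP/GMP shows the most crosses.

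H2-Ab1 encodes the beta chain of I-A, the main class II molecule of C57BL/6J mice, and its lower gene end was most accessible in WT monocytes. The region there (chr17:34263080-34263435) had 20 tags in Cxcr3-/- monocytes, 41 in WT monocytes, 23 in Cxcr3-/- CMP/GMP and 14 in WT CMP/GMP. Scaled, these are 22.7, 36.8, 17.8 and 17.7 tags, so both monocyte values were above both CMP/GMP values. The log2 ratio of WT monocytes to WT CMP/GMP was 1.06 (0.15 to 2.05), and that of Cxcr3-/- monocytes to Cxcr3-/- CMP/GMP was 0.35 (−0.59 to 1.28), both on means under 30 tags. Just outside this end, chr17:34261550-34261846 was called with 10 tags in Cxcr3-/- monocytes and 23 in WT monocytes, and not in CMP/GMP. At equal accessibility 14.7 and 16.3 tags would have been seen in Cxcr3-/- CMP/GMP and WT CMP/GMP, where the lowest called pileups anywhere were 9 and 7.

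H2-Aa, the alpha chain of I-A, was open at its start in all 4 libraries at a low level. The region over the Y box printed above (chr17:34287772-34288031) had 13 tags in Cxcr3-/- monocytes, 21 in WT monocytes, 30 in Cxcr3-/- CMP/GMP and 14 in WT CMP/GMP. Scaled, they lay between 14.8 and 23.3 tags, and monocytes and CMP/GMP overlapped. In the space between H2-Aa and H2-Eb1, a region at chr17:34296047-34296382 had 23, 37, 19 and 14 tags in the same order, with both monocyte values above both CMP/GMP values. Its log2 ratio of monocytes to CMP/GMP was 0.83 (−0.11 to 1.79) in Cxcr3-/- and 0.91 (−0.01 to 1.91) in WT cells, on means under 30 tags, and both counting intervals reached 0.

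H2-Eb1, the beta chain of I-E, was likewise open at its start (chr17:34305688-34306040), with 17 tags in Cxcr3-/- monocytes, 20 in WT monocytes, 28 in Cxcr3-/- CMP/GMP and 18 in WT CMP/GMP. The scaled values, 17.95 to 22.7 tags, spanned the narrowest range of the gene ends that were open in all 4 libraries. Both monocyte values were below both CMP/GMP values. The log2 ratio of monocytes to CMP/GMP was −0.17 (−1.13 to 0.75) in Cxcr3-/- and −0.34 (−1.34 to 0.66) in WT cells, on means under 30 tags. Another region at chr17:34304848-34305044, 823 bp outside the lower end, was called only in monocytes, with 16 tags in Cxcr3-/- and 28 in WT. Equal accessibility would have given 23.5 tags in Cxcr3-/- CMP/GMP and 19.9 in WT CMP/GMP. H2-Ea, the alpha chain gene of I-E, which is defective in C57BL/6 mice, lies beyond H2-Eb2. A region 3012 bp from its upper end (chr17:34347657-34348258) had 35 tags in Cxcr3-/- monocytes, 74 in WT monocytes, 73 in Cxcr3-/- CMP/GMP and 32 in WT CMP/GMP.

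H2-Eb2, a beta-chain gene, was open at its upper end instead. The region there (chr17:34340898-34341330) had 31 tags in Cxcr3-/- monocytes, 42 in WT monocytes, 36 in Cxcr3-/- CMP/GMP and 21 in WT CMP/GMP. Both monocyte values were above both CMP/GMP values after scaling, by a log2 ratio of 0.34 (−0.40 to 1.07) in Cxcr3-/- and 0.51 (−0.28 to 1.34) in WT cells, with both intervals including 0. The region beyond H2-Ea had −0.51 (−1.13 to 0.09) in Cxcr3-/- and 0.72 (0.10 to 1.36) in WT cells. Summed over these 2 regions, H2-Eb2 had −0.17 (−0.63 to 0.28) in Cxcr3-/- and 0.64 (0.16 to 1.13) in WT cells.

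**Figure D2:**
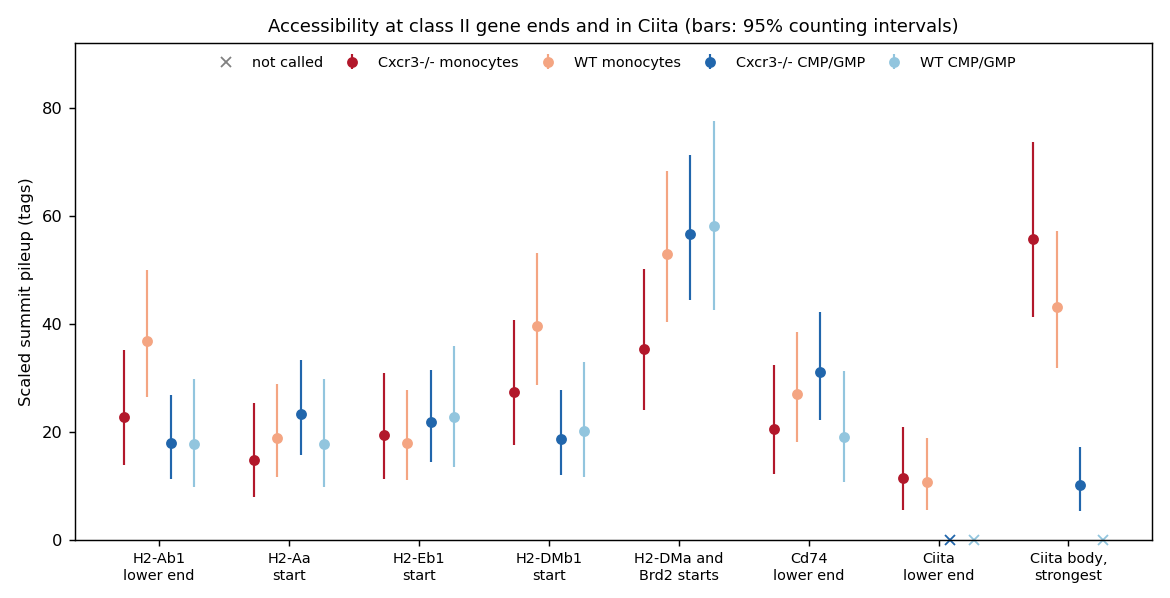
Scaled summit pileup in tags with exact 95% Poisson counting intervals (vertical bars) for the regions at 7 gene ends and for the strongest region of Ciita, in Cxcr3-/- monocytes, WT monocytes, Cxcr3-/- CMP/GMP and WT CMP/GMP; crosses at 0 mark regions not called. The bars overlap across libraries at H2-Aa and H2-Eb1, while the strongest Ciita region has 55.7 and 43.1 tags in monocytes and 10.1 tags in Cxcr3-/- CMP/GMP.

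Of the H2-M genes, which load peptide, H2-DMb1 resembled H2-Ab1. Its start (chr17:34153025-34153390) had 24 tags in Cxcr3-/- monocytes, 44 in WT monocytes, 24 in Cxcr3-/- CMP/GMP and 16 in WT CMP/GMP. Both monocyte values were above both CMP/GMP values after scaling, with log2 ratios of 0.55 (−0.33 to 1.43, on a mean under 30 tags) in Cxcr3-/- and 0.97 (0.11 to 1.89) in WT cells. A weak region at chr17:34150206-34150375, with 11 tags in Cxcr3-/- and 12 in WT, was called only in monocytes. H2-DMb2 is a close copy of H2-DMb1 beside it, and how reads matching both were placed is not stated.

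H2-DMa held the strongest accessible region of all 10 loci. This region, 3228 bp inside its upper end (chr17:34135308-34135873), had 75 tags in Cxcr3-/- monocytes, 116 in WT monocytes, 140 in Cxcr3-/- CMP/GMP and 79 in WT CMP/GMP. Scaled, these are 85.3, 104.1, 108.5 and 99.8 tags, close to one another. A start of H2-DMa lies in a window of 73% G and C that it shares with Brd2, a broadly expressed bromodomain gene, and that has no X and Y pair. It had 31, 59, 73 and 46 tags (chr17:34122533-34122876), and Brd2's other accessible start (chr17:34119051-34119894) had 36, 77, 134 and 66. In contrast to H2-Ab1 and H2-DMb1, but as at the start of H2-Eb1, both monocyte values at these Brd2 starts were below both CMP/GMP values. At the farther one the log2 ratio of monocytes to CMP/GMP was −1.34 (−1.92 to −0.80) in Cxcr3-/- and −0.27 (−0.76 to 0.23) in WT cells. Inside H2-DMa, chr17:34121147-34121496 with 27 and 51 tags and chr17:34134494-34134658 with 19 and 34 tags were called in Cxcr3-/- and WT monocytes and in neither CMP/GMP library. Equal accessibility would have given 27.9 to 39.6 tags in Cxcr3-/- CMP/GMP and 24.2 to 36.2 tags in WT CMP/GMP at these places. The first lies right beside chr17:34120945-34121117, a separate region called with 42 tags in WT monocytes and 34 in WT CMP/GMP. WT monocytes had a separate interval at each of these places, and WT CMP/GMP had one only at this neighbour. Whether the placing of interval ends bears on that absence was not tested. In Cxcr3-/- CMP/GMP the background nearby was high, at 18.95 tags (chr17:34122307-34122465).

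The genes of H2-O, which restrains H2-M, had their strongest regions outside the gene bodies. That of H2-Ob lay 3570 bp below its lower end (chr17:34234962-34235335), with 16 tags in Cxcr3-/- monocytes, 24 in WT monocytes, 66 in Cxcr3-/- CMP/GMP and 33 in WT CMP/GMP. Both monocyte values were the low ones, by a log2 ratio of −1.49 (−2.38 to −0.69) in Cxcr3-/- cells and −0.95 (−1.78 to −0.15, on a mean under 30 tags) in WT cells. Summed over its 3 regions called in all libraries, H2-Ob had the lowest ratio of monocytes to CMP/GMP among the 10 genes in both genotypes, −1.16 (−1.71 to −0.64) and −0.74 (−1.24 to −0.24).

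The strongest region of H2-Oa was at chr17:34101575-34102083, with 22 tags in Cxcr3-/- monocytes, 58 in WT monocytes, 65 in Cxcr3-/- CMP/GMP and 38 in WT CMP/GMP. Scaled, these are 25.02, 52.1, 50.4 and 48.0 tags, so Cxcr3-/- monocytes stood apart from the other 3 libraries. The log2 ratio of Cxcr3-/- to WT monocytes was −1.06 (−1.84 to −0.33), and that of Cxcr3-/- monocytes to Cxcr3-/- CMP/GMP was −1.01 (−1.78 to −0.29). A region 246 bp inside the gene (chr17:34092625-34092899), not over the X and Y pair, had 16, 22, 41 and 20 tags in the same order.

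Cd74, on chromosome 18, was open in all 4 libraries at its lower end and at further regions inside the gene. The region at the end (chr18:60803596-60803863) had 18 tags in Cxcr3-/- monocytes, 30 in WT monocytes, 40 in Cxcr3-/- CMP/GMP and 15 in WT CMP/GMP, and the cell types overlapped after scaling. At 1776 bp inside (chr18:60805625-60806108) there were 30, 43, 37 and 17 tags, and here both monocyte values were above both CMP/GMP values. The log2 ratio of monocytes to CMP/GMP there was 0.25 (−0.50 to 0.98) in Cxcr3-/- and 0.85 (0.01 to 1.75) in WT cells. Summed over its 4 regions called in all libraries, Cd74 had −0.11 (−0.49 to 0.26) in Cxcr3-/- and 0.43 (0.04 to 0.83) in WT cells. A narrow interval 717 bp outside the end was called in WT monocytes alone, with 27 tags, and one 1133 bp inside was called in CMP/GMP alone, with 26 tags in Cxcr3-/- and 16 in WT.

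Ciita, the coactivator of the other genes, had the clearest difference of a single region between cell types, inside the gene. Its sum over the 3 regions called in all libraries, which leaves that region out, went the other way. The summed log2 ratio of monocytes to CMP/GMP was −0.59 (−1.16 to −0.05) in Cxcr3-/- and −0.32 (−0.83 to 0.20) in WT cells. Its strongest region (chr16:10495923-10496458), 16.2 kb from the lower end of the gene (chr16:10480014-10531064), had 49 tags in Cxcr3-/- monocytes, 48 in WT monocytes and 13 in Cxcr3-/- CMP/GMP, and was not called in WT CMP/GMP. The log2 ratio of Cxcr3-/- monocytes to Cxcr3-/- CMP/GMP was 2.47 (1.56 to 3.47), the highest of any class II region in the 4 comparisons. Accessibility equal to that of WT monocytes would have given 34.1 tags in WT CMP/GMP, far above the lowest called pileup of 7. Its neighbour at chr16:10495098-10495288 was called with 24 tags in Cxcr3-/- monocytes and 34 in WT monocytes and not in CMP/GMP, where 35.2 and 24.2 tags would have been equal accessibility in Cxcr3-/- and WT cells.

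Most of the monocyte regions of Ciita lay in the first 20 kb of the gene, a bound chosen after the values were seen, so the counts are a description. There were 9 regions, of which 7 were called in Cxcr3-/- monocytes, 8 in WT monocytes, 3 in Cxcr3-/- CMP/GMP and 1 in WT CMP/GMP. Of all regions, 61.7%, 78.2%, 65.3% and 54.9% were called in the same 4 libraries. With every list reduced to its 69521 best intervals, the length of the shortest list, these counts were 5, 6, 2 and 1. In the rest of the gene there were 3 regions, of which 1, 2, 3 and 2 were called in the same 4 libraries. There, at 41.4 kb, chr16:10521228-10521528 had 10 tags in Cxcr3-/- monocytes, 17 in WT monocytes, 42 in Cxcr3-/- CMP/GMP and 28 in WT CMP/GMP. Both monocyte values were the low ones, by −1.52 (−2.68 to −0.50) in Cxcr3-/- and −1.21 (−2.17 to −0.29) in WT cells, on means under 30 tags.

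The lower end of Ciita was weakly open in monocytes. The region over it (chr16:10479994-10480129) had 10 tags in Cxcr3-/- monocytes and 12 in WT monocytes and was not called in CMP/GMP. Equal accessibility would have given 14.7 tags in Cxcr3-/- CMP/GMP and 8.53 in WT CMP/GMP, so in WT a difference was not detectable at this depth. A second monocyte-only region at 2.52 kb (chr16:10482396-10482676) had 12 tags in Cxcr3-/- and 25 in WT. In contrast, the region at 8.17 kb (chr16:10487972-10488391) was called in all 4 libraries with 14, 24, 36 and 22 tags, both monocyte values being the low ones after scaling, on means under 30 tags. Regions with lower monocyte values were thus found in the first 20 kb as well as beyond.

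**Figure D3:**
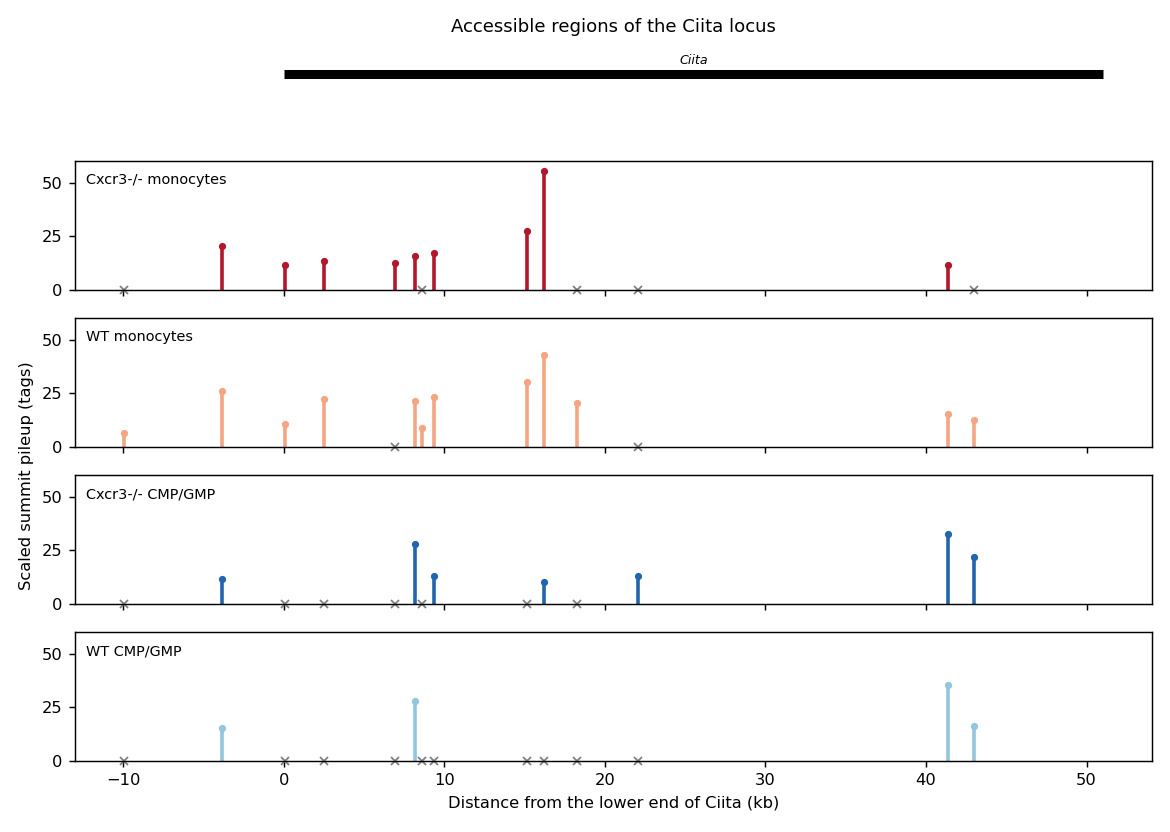
Scaled summit pileup in tags (vertical axis) of the 14 regions of the Ciita locus against distance in kb from the lower end of the gene, with 1 panel per library and the gene body in black. Grey crosses are regions not called. Stems at 15.2 and 16.2 kb are tall in both monocyte panels, and the stem at 41.4 kb is taller in both CMP/GMP panels.

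The comparison of monocytes with CMP/GMP asks which loci change accessibility with differentiation. Among 12 member regions with a mean of at least 30 tags in Cxcr3-/- cells, 1 was 2-fold or more higher in monocytes (the Ciita region at 16.2 kb; 10.9% of all regions were) and 3 were 2-fold or more lower (at Brd2 beside H2-DMa, below H2-Ob and beyond H2-Oa; 9.78% of all regions were). In WT cells, where Ciita's strongest region has no value in CMP/GMP, none of 14 was 2-fold or more higher (10.8% of all regions) or lower (6.68%). The median log2 ratio was −0.60 in Cxcr3-/- cells, where 9 of 12 were below 0 (55.7% of all regions were), and 0.03 in WT cells, where 8 of 14 were above 0 (52.2% of all regions were). Over all regions those medians were −0.10 and 0.03. The Ciita region, with 49 and 13 tags, passed the minimum only through Cxcr3-/- monocytes. Those below H2-Ob, with 16 and 66 tags, and beyond H2-Oa, with 22 and 65, passed only through Cxcr3-/- CMP/GMP. With no minimum the member medians were −0.51 in Cxcr3-/- and −0.13 in WT cells, against −0.09 and −0.20 over all regions. Regions within 500 kb of the chromosome 17 loci that belong to none of the 10 genes had a median of −0.48 in Cxcr3-/- cells, with 39 of 46 below 0, and centred on gene density the member median there was −0.25. The part of the neighbourhood in these values was not tested. Summed per gene, 8 of the 10 genes were below 0 in Cxcr3-/- cells (68.2% of all genes were) and 5 in WT cells (58.8%). With background tags the member medians were 0.020 and 1.26, against 0.52 and 1.26 over all regions.

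Regions called in 1 cell type only were set beside their shares of all regions. The widest gap rested on the 3 CMP/GMP-only regions of WT cells. In Cxcr3-/- cells 10 of 56 regions were called in monocytes only (17.9%, beside 22% of all regions) and 15 in CMP/GMP only (26.8%, beside 26.3%). In WT cells 27 of 63 were called in monocytes only (42.9%, beside 38.6%) and 3 in CMP/GMP only (4.76%, beside 12.5%). The 27 became 13 with lists of equal length. The 3 became 4 with lists of equal length, 1 with a stricter q and 9 with 50% reciprocal overlap. Of the 26 regions called in all 4 libraries, both monocyte values were above both CMP/GMP values in 7 (26.9%, beside 26.7% of all regions) and below them in 11 (42.3%, beside 39.9%), shares near those of the genome.

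In monocytes, the comparison of genotypes asks whether Cxcr3 loss goes with another accessibility of these loci. Accessibility was lower in Cxcr3-/- than in WT monocytes at 15 of 16 member regions with a mean of at least 30 tags, whereas 49.5% of all regions were below 0. The median log2 ratio was −0.52, against 0.00 over all regions. Some of these regions passed the minimum only through WT monocytes, as did the one beyond H2-Oa, with 22 and 58 tags. With no minimum the median was −0.35, against 0.04 over all regions. The 1 region above 0 (50.3% of all regions were) was the strongest of Ciita, with 49 and 48 tags and a ratio of 0.37 (−0.23 to 0.98). The size was modest: the region beyond H2-Oa was the 1 that was 2-fold or more lower (0.401% of all regions were), and none was 2-fold or more higher (0.264% of all regions were).

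The counting intervals of 4 of the 16 regions lay wholly below 0, as did those of 4.44% of all regions. They were those beyond H2-Oa, at the Brd2 start in the H2-DMa locus, with −0.76 (−1.37 to −0.17), beyond H2-Ea, with −0.74 (−1.36 to −0.14), and at chr17:34257616-34258093 below H2-Ab1, with −0.78 (−1.58 to −0.03). The last had 22 tags in Cxcr3-/- monocytes, 48 in WT monocytes, 63 in Cxcr3-/- CMP/GMP and 34 in WT CMP/GMP. With no minimum on tags, 34 of 40 member regions were below 0 and the median was −0.35, against 45.6% of all regions and a median of 0.04. Regions called in WT monocytes only numbered 20 of 61 (32.8%, beside 25% of all regions), and regions called in Cxcr3-/- monocytes only numbered 1 (1.64%, beside 4.95%). With lists of equal length these counts were 11 and 2.

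Summed over the regions called in all libraries, each of the 10 genes was below 0 in this comparison, as were 55.5% of 15687 genes. H2-Ab1 had the lowest ratio, −0.74 (−1.31 to −0.20), from 42 summed tags in Cxcr3-/- monocytes and 89 in WT monocytes. H2-Oa followed with −0.73 (−1.33 to −0.16), from 38 and 80 tags. H2-Eb2 at −0.47 (−0.93 to −0.02) and H2-DMa at −0.46 (−0.73 to −0.19) also had intervals below 0. The other 6 had intervals that included 0: Ciita −0.40, H2-DMb1 −0.39, H2-Ob −0.36, Cd74 −0.33, H2-Eb1 −0.17 and H2-Aa −0.03. The Ciita sum, 42 tags in Cxcr3-/- and 70 in WT monocytes, came from 3 regions. It left out the strongest Ciita region, at 0.37 (−0.23 to 0.98), which was not called in WT CMP/GMP. None of the 10 genes reached 2-fold (0.229% of all genes were 2-fold or more lower and 0.408% higher). The sums also take in regions outside a gene or shared with a neighbour. H2-Eb2 had −0.10 (−0.82 to 0.61) at its upper end and −0.74 beyond H2-Ea. H2-Oa had −0.12 (−1.145 to 0.88, on a mean under 30 tags) inside the gene and −1.06 beyond it. The H2-DMa sum includes the Brd2 starts, at −0.76 and −0.59, and its strongest region had −0.29 (−0.73 to 0.14). At the lower end of H2-Ab1 the ratio was −0.69 (−1.54 to 0.11).

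The chromosome 17 loci lie in gene-rich DNA, and lower values in Cxcr3-/- monocytes were shared by their surroundings. The regions of these loci had 48 to 56 protein-coding genes in the 1 Mb around them, which put them in the highest of 10 bins of gene density. Of all 3243 regions of that bin, 77.4% were below 0, with a median of −0.23, against 12 of 12 member regions and a median of −0.58. Another 41 regions within 500 kb of these loci that belong to none of the 10 genes had a median of −0.44, with 39 below 0. After subtraction of the median of each region's bin, 14 of the 16 member regions were below 0 and their median was −0.32. The part of gene density, or of the neighbourhood, in the result was not tested.

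**Figure D4:**
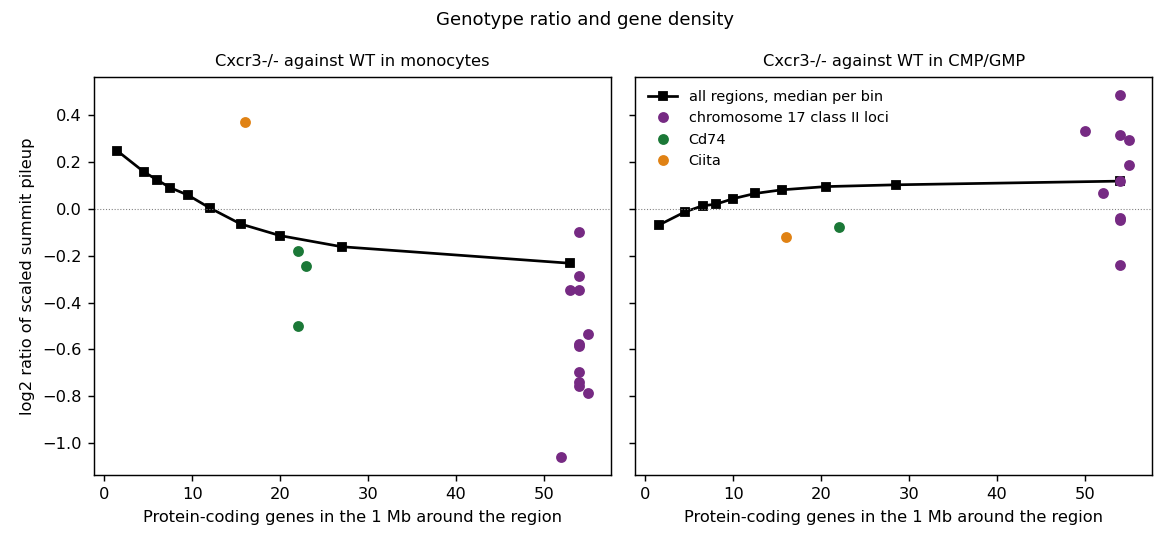
Log2 ratio of scaled summit pileup, Cxcr3-/- against WT, for member regions with a mean of at least 30 tags, against gene density in protein-coding genes per surrounding 1 Mb, in monocytes (left) and CMP/GMP (right); black squares joined by lines are medians of all regions per density bin. In monocytes the black line falls to −0.23 in the bin of highest density, and all 12 chromosome 17 points there lie below 0.

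Between the genotypes of CMP/GMP, the member regions lay on both sides of 0. Of 12 member regions with a mean of at least 30 tags, 7 were above 0 (56.9% of all regions were), none was 2-fold or more higher (0.139% of all regions) or lower (0.136%), and the median was 0.10, against 0.05 over all regions. All 12 counting intervals included 0, which 4.56% of all regions' intervals left out. Centred on gene density, the median was −0.02, with 6 above and 6 below 0. The neighbouring regions of the chromosome 17 loci had a median of 0.22. H2-Ab1 had 86 summed tags in Cxcr3-/- CMP/GMP and 48 in WT CMP/GMP, a log2 ratio of 0.14 (−0.39 to 0.68), and H2-Eb2 the highest gene ratio, 0.34 (−0.15 to 0.84). In this comparison 13 of 49 regions were called in Cxcr3-/- only (26.5%, beside 22% of all regions) and 3 in WT only (6.12%, beside 7.23%). The Ciita region at 16.2 kb, with 13 tags, and the inner H2-Ab1 region at chr17:34264777-34265191, with 21 tags, were among the 13. Equal accessibility would have given 7.98 and 12.9 tags in WT CMP/GMP, so a difference at Ciita was not detectable at this depth. None of the 10 genes reached 2-fold (0.0191% of all genes were 2-fold or more higher and 0.198% lower).

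**Figure D5:**
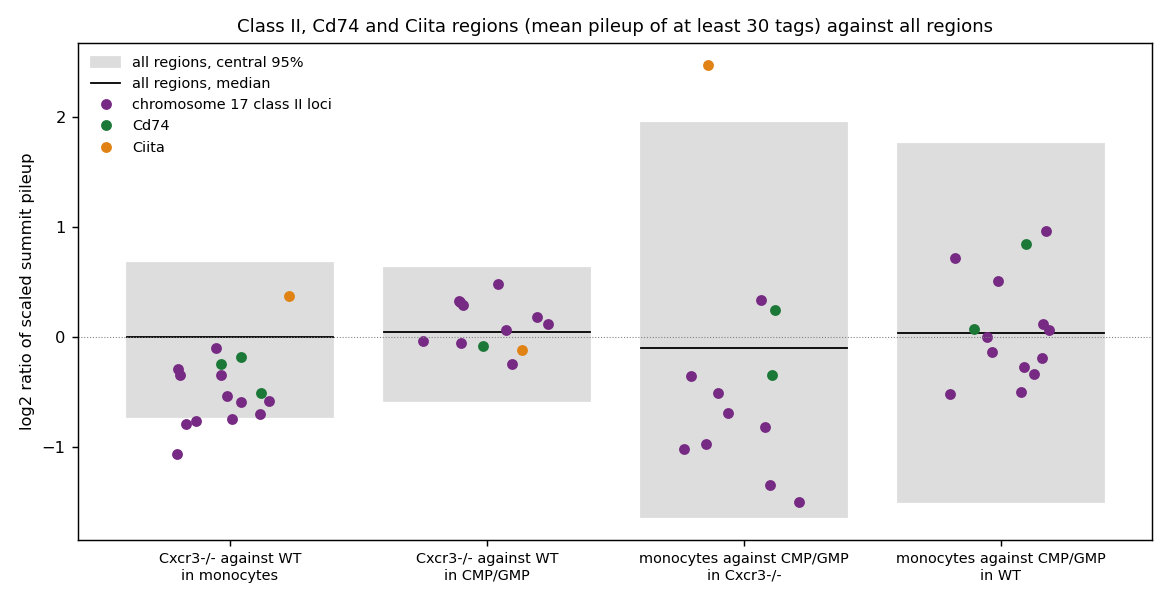
Log2 ratio of scaled summit pileup (vertical axis) of member regions with a mean of at least 30 tags in the 4 comparisons, with points for the chromosome 17 loci, Cd74 and Ciita, beside the central 95% of all regions (grey) and their median (black line). In monocytes 15 of 16 points of the genotype comparison are below 0, and the Ciita point at 2.47 stands at the top in Cxcr3-/- monocytes against Cxcr3-/- CMP/GMP.

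Other genes of the pathway, a list of 25, held 232 regions, of which 13, at H2-DMb2 and H2-Ea, also belong to the loci above and 219 do not. None of the 25 genes reached 2-fold in any of the 4 comparisons when its common regions were summed, with medians of −0.10 for Cxcr3-/- against WT monocytes and 0.06 for CMP/GMP, and −0.31 and −0.01 for monocytes against CMP/GMP in Cxcr3-/- and WT cells. Single regions did. Ifi30, a thiol reductase that unfolds antigens in lysosomes, had the only region 2-fold or more lower in Cxcr3-/- than in WT monocytes, of 78 with a ratio outside the loci above (1.28%, beside 0.401% of all regions). It had 22 tags in Cxcr3-/- monocytes and 61 in WT monocytes, a log2 ratio of −1.13 (−1.90 to −0.41). Ctss, the protease that trims the invariant chain, had the only one in CMP/GMP, of 71 (1.41%, beside 0.136%), with 29 tags in Cxcr3-/- and 37 in WT and −1.06 (−1.81 to −0.32).

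Between cell types, 4 of 72 such pathway regions were 2-fold or more higher in Cxcr3-/- monocytes (5.56%, beside 10.9% of all regions) and 6 were lower (8.33%, beside 9.78%). In WT monocytes 7 of 63 were higher (11.1%, beside 10.8%) and none lower (beside 6.68%). Marchf1, a ubiquitin ligase that removes class II from the cell surface, held 4 of the 7. Its region at chr8:66436862-66437091 had 74 tags in Cxcr3-/- monocytes, 56 in WT monocytes, 20 in Cxcr3-/- CMP/GMP and 15 in WT CMP/GMP, with log2 ratios of 2.44 (1.71 to 3.23) in Cxcr3-/- and 1.41 (0.57 to 2.34) in WT cells. Regions of Cd86, a costimulatory ligand, and of Irf8, a transcription factor of monocyte and dendritic cell development, were also among the higher ones. The lower ones in Cxcr3-/- monocytes included regions of Spi1, Ifi30, Irf1, Irf4 and Ifngr1, the last encoding a chain of the interferon-gamma receptor. Spi1, which encodes PU.1, went both ways, with another region (chr2:91084261-91084818) 2-fold or more higher in WT monocytes than in WT CMP/GMP, at 1.09 (0.41 to 1.82).

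The labelled cell types were compared with their markers. Of 8 CMP/GMP markers, 6, with Elane and Prtn3 counted apart, were below 0 for monocytes against CMP/GMP in both genotypes. Taking each genotype alone, 68.2% of all genes were below 0 in Cxcr3-/- and 58.8% in WT cells. The share of all genes with the same sign in both genotypes was not counted. Cd34 was above 0 in Cxcr3-/- cells and Fcgr3 in WT cells. Elane and Prtn3 share their regions, so the 8 are 7 separate loci, of which 3 were 2-fold or more lower in monocytes in each genotype (4.52% of all genes were in Cxcr3-/- and 5.23% in WT cells). Kit, the stem cell factor receptor, was at −1.49 in Cxcr3-/- and −1.43 in WT cells, and Ctsg, a granule protease, at −1.40 and −1.73. Of 7 monocyte markers with a ratio, 5 were above 0 in both genotypes. Each genotype taken alone, 31.8% of all genes were above 0 in Cxcr3-/- and 41.1% in WT cells. None of the 7 reached 2-fold (1.95% and 1.56% of all genes were 2-fold or more higher), and Ly6c1 had no region in any library. Ly6c2, at −0.67 in Cxcr3-/- and −0.73 in WT cells, and Ccr2, at −0.66 and −0.55, went against the label, with intervals below 0. Between Cxcr3-/- and WT monocytes, the list medians were −0.08 for CMP/GMP and −0.16 for monocyte markers, against −0.04 over all genes. Of the CMP/GMP markers 5 were below 0 and 3 above, from Gata2 at −0.56 (−1.36 to 0.20) to Cd34 at 0.60 (0.30 to 0.90). Of the monocyte markers 5 were below 0 and 2 above, from the integrin gene Itgam at −0.54 (−0.84 to −0.24) to Ly6c2 at 0.23 (−0.47 to 0.92). Over all genes 55.5% were below 0. Medians of the other lists were −0.27 for B cell, −0.02 for dendritic cell and −0.16 for T and NK cell markers. All 8 B cell and 8 dendritic cell markers had a region in every library, and 4 of 6 T and NK cell markers did, Cd3e and Ncr1 having none in any. Summed over the list, B cell loci held 18 and 24 regions in Cxcr3-/- and WT monocytes and 27 and 25 in Cxcr3-/- and WT CMP/GMP, and dendritic cell loci 42 and 53, and 50 and 47. For monocytes against CMP/GMP, 2 of 8 B cell markers were 2-fold or more lower in each genotype and 1, Ms4a1, higher. Ms4a1 was at 1.10 in Cxcr3-/- and 1.51 in WT cells. Of 4 T and NK cell markers with a ratio, none was lower and 1, Klrb1c, was higher, at 1.46 and 1.35. Ms4a1 and Klrb1c each had 1 region called in all libraries. Of 8 dendritic cell markers, 1 was lower and none higher. Of all genes, 4.52% and 5.23% were lower and 1.95% and 1.56% higher. The part of other cell types in the class II values was not tested.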

How the data were processed

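Each of 4 groups, named by the labels, had 1 Omni-ATAC-seq library. The submitters' processing notes name Trim Galore, Bowtie2, SAMtools and the build mm10, and no source used here names the peak caller. The authors deposited 1 interval list per library. The score the authors deposited was used only in a check. The deposited fold enrichment is the ratio of the authors' summit pileup to their expected background, and the deposited −log10 p and −log10 q are the authors' values per summit. All listed q-values were under 0.05. Names, chromosomes, coordinates and summit positions in the deposited files are of another kind than measurements and served to place intervals.

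From fold and p the whole-tag summit pileup was recovered, with a tolerance of 0.01. Intervals of the 4 lists that shared 1 base were merged, and the highest pileup of each library in a region was kept. Ratios of scaled pileups have exact conditional binomial intervals, shares have exact Clopper-Pearson intervals, and a call was a 2-fold ratio. A gene's ratio used tags summed over regions of its locus that were called in all libraries. Other settings were another scaling, tag minima, flanks, list lengths, q thresholds and overlaps. The steps were tested on simulated data. Named regions are those at gene starts, past 2-fold or called in 1 cell type, and others that show where a locus is most accessible. The members, gene lists and tests were chosen with earlier results of these data known. Gene names came from RefSeq tables of GRCm38.p6. Python 3.11.15, pandas 2.3.3 and scipy 1.17.1 were used. The values of 1 gene of the pathway list are not reported here.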

Additional observations from a re-analysis of the deposited data

Results flagged for a closer look

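The ratio of Cxcr3-/- to WT was below 0 in monocytes and above 0 in CMP/GMP for the median over class II regions, at −0.52 and 0.10 on the log2 scale. The same held for the summed ratios of 7 genes. They were −0.03 in monocytes and 0.20 in CMP/GMP for H2-Aa, −0.74 and 0.14 for H2-Ab1, −0.47 and 0.34 for H2-Eb2, and −0.73 and 0.17 for H2-Oa. They were −0.36 and 0.06 for H2-Ob, −0.46 and 0.11 for H2-DMa, and −0.33 and 0.21 for Cd74. With 1 library per group the difference between the cell types was not tested. The median over all regions was 0.00 in monocytes and 0.05 in CMP/GMP. Centred on gene density the class II median in CMP/GMP was −0.02, so the signs were then no longer opposite, with −0.32 in monocytes. Regions within 500 kb of the chromosome 17 loci that belong to none of the genes had medians of −0.44 in monocytes and 0.22 in CMP/GMP, of opposite sign too.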

How the results depend on the processing

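Of 24 medians under other settings 14 stayed within the counting error of the summed tags, and of 36 counts 23 stayed within 1.5 times. No paired analysis was made. Each group had 1 library, and the 4 libraries were not fitted together across genotype and cell type. Scaling by background tags gave medians of −1.03 for Cxcr3-/- against WT monocytes, 0.020 for monocytes against CMP/GMP in Cxcr3-/- cells and 1.26 in WT cells, and it shifts all regions by −0.52, 0.62 and 1.23. It also turned the sign of 5 of 10 gene ratios in each cell-type comparison and none between genotypes. Median-of-ratios scaling, added after the data had been seen, moved no median and turned 1 and 2 gene signs between cell types. The median between genotypes in monocytes was −0.35 with no tag minimum, −0.29 at a minimum of 60 tags (1 region) and −0.32 centred on gene density. Between cell types in Cxcr3-/- cells it was −0.82 at 60 tags (3 regions), −0.34 without flanks and −0.25 centred on density, and in WT cells −0.13 with no minimum. Without flanks the loci held 26, 38, 28 and 21 regions in Cxcr3-/- monocytes, WT monocytes, Cxcr3-/- CMP/GMP and WT CMP/GMP, since less DNA is counted. Regions called in Cxcr3-/- monocytes only, against WT, numbered 2 with lists of equal length, 0 with a stricter q and 4 with 50% reciprocal overlap, and those in WT monocytes only 11 with equal lengths. In CMP/GMP, 8 were called in Cxcr3-/- only with equal lengths and 6 in WT only with 50% overlap. In WT cells 13 were called in monocytes only with equal lengths, and 1 with a stricter q and 9 with 50% overlap in CMP/GMP only. Other than the shifts and fewer regions named, the cause was not tested. Depth limits regions near the lowest called pileups of 6, 5, 9 and 7 tags.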
